A study of Mus musculus with 22 samples.

Results

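The genes described here are 10 targets of the transcription factor NRF2 (gene symbol Nfe2l2) that defend cells against oxidants and reactive chemicals: Nqo1, Hmox1, Gclc, Gclm, Txnrd1, Srxn1, Gsr, Prdx1, Me1 and Abcc1. They were taken by name from the 18487 genes of the expression table, and all 10 were present and passed the filter on low values that left 17275 genes for testing. RNA was measured in E14 cells, an established mouse embryonic stem cell line, in 22 libraries that form 11 groups of 2: 10 compounds and a group with the label NC. The compounds were Bromosporine, Chaetocin, CPTH2, DZNep, Garcinol, IOX1, MS023, OICR, UNC0379 and Valproate, and NC was the only label that named no compound, so it served as the reference. All groups shared the cell line, and the labels gave no dose, no exposure time, no vehicle and no culture from which a replicate came, so p-values measure only the spread between these libraries.

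Of the compounds, MS023 inhibits type I protein arginine methyltransferases, and IOX1 is a broad inhibitor of oxygenases that use 2-oxoglutarate, among them the JmjC histone demethylases. Valproate inhibits histone deacetylases, Bromosporine binds the bromodomains that read acetylated lysine, and CPTH2 and Garcinol inhibit histone acetyltransferases. DZNep inhibits the hydrolase that clears S-adenosylhomocysteine and thereby hinders methylation in general, Chaetocin inhibits histone lysine methyltransferases, UNC0379 inhibits SETD8, and the full name of the compound labelled OICR is not given by the label.

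NRF2 is held in the cytoplasm by KEAP1, an adaptor of a CUL3 ubiquitin ligase, and is degraded continuously in unstressed cells. Oxidants and electrophiles modify reactive cysteines of KEAP1, NRF2 then escapes degradation, pairs with a small MAF protein in the nucleus and binds the antioxidant response element in its target genes. The targets make glutathione, keep thioredoxin and peroxiredoxin reduced, supply NADPH, reduce quinones, break down heme and export conjugates.

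The core of that element was searched in the promoters of these genes, because NRF2 binds it in its targets. The letters searched were TGACNNNGC on both strands, in windows from 250 bases before to 50 bases after the RefSeq transcription start (GRCm38.p6, the same assembly as mm10). Of the 10 genes 6 matched an entry (Nqo1, Gclm, Txnrd1, Srxn1, Prdx1 and Me1), and 5 of these 6 (83.3%) held the letters in at least 1 window. Over all genes the share was 14% (3781 of 27025), and among other NRF2 targets with an entry it was 25% (9 of 36). Counted by window, 5 of the 9 windows of these genes held the letters (55.6%), against 12.4% of all windows (4071 of 32851). The matches are shown with up to 20 bases on either side, 5′ to 3′ on the gene's own strand, with the matching letters in capitals.
Gclm (chr3:122245403-122245451, plus strand): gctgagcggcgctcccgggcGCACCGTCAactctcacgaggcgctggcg
Txnrd1 (chr10:82859094-82859142, plus strand): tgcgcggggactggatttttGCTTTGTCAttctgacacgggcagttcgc
Srxn1 (chr2:152105532-152105560, plus strand): gccacggcgggcagtgggcaGCTAGGTCA
Prdx1 (chr4:116685446-116685494, plus strand): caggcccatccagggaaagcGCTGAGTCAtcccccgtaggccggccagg
Me1 (chr9:86695892-86695940, minus strand): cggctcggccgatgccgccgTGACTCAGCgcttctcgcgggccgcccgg
The match read TGACGGTGC in Gclm, TGACAAAGC in Txnrd1, TGACCTAGC in Srxn1 and TGACTCAGC in both Prdx1 and Me1, in each case on the opposite strand except in Me1. TGACTCAGC also contains TGACTCA, the letters of the AP-1 element, and was present in 0.454% of all windows (149). The matches lay 134 to 126 bases before the start in Gclm, 133 to 125 before it in Prdx1 and 92 to 84 before it in Txnrd1 (the second of 3 starts). In Me1 the match lay across the start, and in Srxn1 it lay at positions 29 to 37 counted from the start. A match of letters is a description of the sequence and not evidence of binding. The window of Nqo1, the gene with the largest rise of the 10, held no match, which says only that these letters are absent from it. Its bases up to the start, shown because the results turn on this gene, had this sequence.
Nqo1 (chr8:107403206-107403455, minus strand): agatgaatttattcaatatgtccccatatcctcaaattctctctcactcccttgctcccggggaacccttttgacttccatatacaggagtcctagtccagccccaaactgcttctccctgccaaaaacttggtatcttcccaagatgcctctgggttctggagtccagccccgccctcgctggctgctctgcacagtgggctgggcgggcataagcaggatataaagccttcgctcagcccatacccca

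The deposited values are normalized read counts. Within the table the distributions of all 22 libraries had been made equal, with the same median (409) and largest value (221616), so the sequencing depth of a library is not known here and a change shared by most genes would not be seen. Values were tested as log2(value + 1) with limma across all 17275 genes, with the Benjamini-Hochberg method within each comparison, and fold changes below are on that scale. A gene was called where the adjusted p was under 0.05 and the fold change over 2. All 10 embryonic stem cell markers were expressed, with summed values of 209156 to 307233 per library, and the sums of 7 listed fibroblast markers (27 to 1874, with Dcn at 0 throughout), 3 endoderm markers (159 to 508) and 2 trophoblast markers (92 to 365) were low. In bulk RNA a change in the number of cells that express a gene and a change of RNA per cell cannot be told apart.

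Scaled to the length of the longest transcript, the genes differed widely in level. Prdx1, a peroxiredoxin that removes hydrogen peroxide, had a median of 21560 per kilobase over the libraries, Txnrd1 2543 and Gsr 2300. Hmox1 was at 1046 per kilobase, Me1 at 824.6, Nqo1 at 689, Gclc at 446.4, Srxn1 at 435.5, Gclm at 425 and Abcc1 at 378.8. Prdx1 shared 18.1% and Me1 42.2% of the 31-base stretches of the longest transcript with other genes' transcripts, which makes read counts of this pair less certain than those of the rest, where the share was at most 2.97% (Gclm). Exons of Gclm also overlapped Gm6061 on the same strand and Gm17494 on the other, and exons of Me1 overlapped A330041J22Rik on the other strand.

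**Figure D1:**
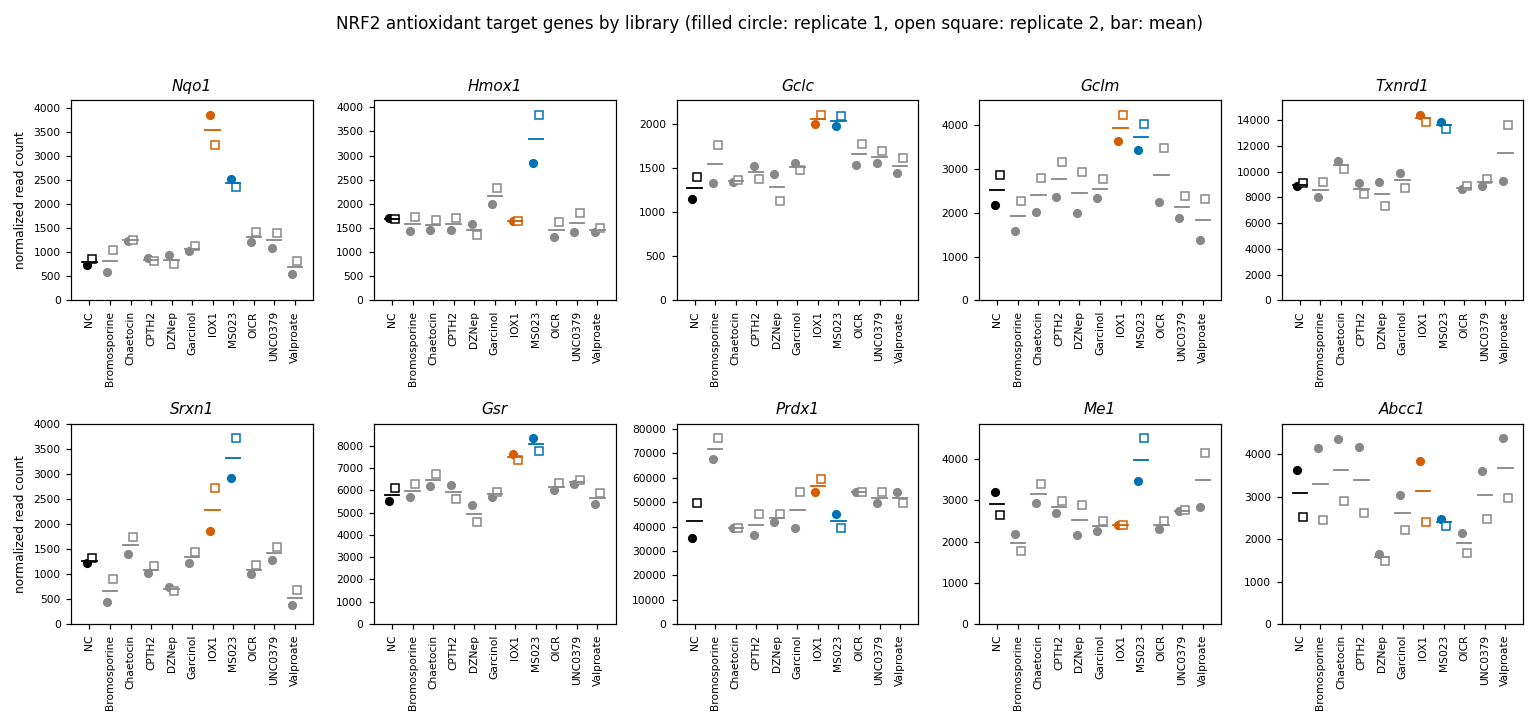
Normalized read counts (vertical axis, from 0) of the 10 NRF2 target genes in the 2 libraries of each of the 11 groups (horizontal axis), with a filled circle for replicate 1, an open square for replicate 2 and a bar for the mean. IOX1 (orange) and MS023 (blue) stand above the other groups for Nqo1, Gclc, Srxn1 and Gsr, MS023 alone does so for Hmox1, and Abcc1 has replicate 1 above replicate 2 in every group.

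Against NC, 2 of the 10 compounds raised members of this set past both thresholds. MS023 raised 2 of 10 genes, Nqo1 and Srxn1 (background: 0.388% of all genes tested were called higher with MS023), and IOX1 raised Nqo1 (0.0347% of all genes called higher, 6 genes in all). Valproate lowered Srxn1 (2.55% of all genes called lower). With the adjusted p alone, 5 genes rose with MS023, namely Nqo1, Hmox1, Gclc, Srxn1 and Gsr (0.863% of all genes), and Prdx1 rose with Bromosporine (1.61% of all genes). The median log2 change of the 10 genes was 0.58 with MS023 and 0.55 with IOX1, against medians of -0.01 and -0.02 over all genes tested. Both libraries lay above both NC libraries for 8 of 10 genes with MS023 (21.8% of all genes did so) and for 7 of 10 with IOX1 (19.4%). These 2 comparisons share the NC libraries, so they are not independent of each other.

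With the other compounds the medians of the 10 genes ran from -0.17 (DZNep) to 0.13 (Chaetocin). In limma's test 0 of 10 genes were called against NC with Bromosporine, Chaetocin, CPTH2, DZNep, Garcinol, OICR and UNC0379, where the share of all genes called was 3.34%, 0.0174%, 0.00579%, 11.4%, 0.00579%, 0.388% and 0%. At an unadjusted p under 0.05 the members numbered 3 with Bromosporine, 1 with Chaetocin, 0 with CPTH2, 3 with DZNep, 0 with Garcinol, 2 with OICR and 2 with UNC0379, and the same limit was passed by 19%, 4.72%, 0.944%, 35.4%, 3.62%, 10.7% and 6.08% of all genes. It was passed by 7 members with IOX1 and 7 with MS023, against 12.4% and 15% of all genes. With DZNep 1970 genes were called in all (1188 without NC replicate 1, and 97 with only the libraries of the groups compared in the fit). Its libraries were both below both NC libraries for 4 of the 10 members (32.4% of all genes) and above them for 0 (26.5% of all genes).

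Nqo1 encodes NAD(P)H quinone dehydrogenase, which reduces quinones in a single step that avoids semiquinone radicals, and lies at chr8:107388225-107403206 (mm10, minus strand). Its values were 728 and 872 with NC, 3870 and 3240 with IOX1 and 2534 and 2357 with MS023. Over the other 8 compounds and NC, 18 libraries in all, Nqo1 ran from 550 to 1430 with a median of 988.5, so neither IOX1 nor MS023 overlapped any of these libraries. Against NC, Nqo1 rose 4.44-fold with IOX1 (log2 change 2.15, SE 0.24, 95% interval 1.63 to 2.67, limma adjusted p = 0.0034). Within replicate number 1 the log2 difference was 2.41 and within number 2 it was 1.89. With MS023 it rose 3.06-fold (log2 change 1.62, SE 0.24, adjusted p = 0.00616), by 1.8 and 1.43 within the replicate numbers. The rise with IOX1 passed the threshold whichever of the 4 libraries was left out (log2 change 2.02 to 2.28), whereas the rise with MS023 did not without NC replicate 1 (adjusted p = 0.0694) or without MS023 replicate 1 (adjusted p = 0.057).

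The next levels of Nqo1 were means of 1327 with OICR (1224 and 1430), 1254 with Chaetocin (1246 and 1262) and 1253.5 with UNC0379 (1100 and 1407). These libraries were all above NC, but the changes did not pass the test (log2 0.73, 0.65 and 0.64, adjusted p = 0.249, 0.803 and 0.784). Garcinol had 1031 and 1130, CPTH2 879 and 819, DZNep 946 and 753, Bromosporine 590 and 1040 and Valproate 550 and 822. In the order of the 11 levels 1 step between neighbours had an adjusted p under 0.05, that from MS023 down to OICR (log2 difference 0.88, SE 0.24, adjusted p = 0.0446), and its fold was under 2. The order was taken from the same values that were tested, and the adjusted p does not allow for that. For the other steps the adjusted p was at least 0.05. One of these was the step from IOX1 to MS023, whose libraries did not overlap (log2 difference 0.53, adjusted p = 0.263).

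Hmox1 encodes heme oxygenase, which degrades heme to biliverdin, iron and carbon monoxide, and lies at chr8:75093621-75100589 (plus strand). The values were 1699 and 1685 with NC, 1644 and 1638 with IOX1 and 2838 and 3848 with MS023. Both MS023 libraries were the highest of all 22, and those of IOX1 lay just under NC. Hmox1 rose 1.95-fold with MS023 (log2 change 0.97, SE 0.17, 95% interval 0.59 to 1.34, adjusted p = 0.0125), short of the fold threshold, and its log2 change with IOX1 was -0.04 (interval -0.42 to 0.33). Garcinol had the next level, 1998 and 2325 (log2 change 0.35, adjusted p = 0.967). The other 7 compounds lay between 1307 and 1803.

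Glutathione is made in 2 steps, and the first and rate-limiting one belongs to glutamate-cysteine ligase, whose catalytic subunit is Gclc (chr9:77754535-77794485, plus strand) and whose modifier subunit is Gclm (chr3:122245557-122270732, plus strand). Gclc had 1148 and 1391 with NC, 1993 and 2101 with IOX1 and 1975 and 2086 with MS023. Libraries of the other groups reached at most 1773. Gclc rose 1.61-fold with MS023 (log2 change 0.68, SE 0.15, adjusted p = 0.0315), and its log2 change with IOX1 was 0.69 (SE 0.15, adjusted p = 0.0891), a change of about the same size that did not pass the test in its own comparison. Gclm had 2182 and 2869 with NC, 3646 and 4244 with IOX1 and 3432 and 4025 with MS023. The log2 changes were 0.65 (SE 0.3, adjusted p = 0.399) and 0.57 (SE 0.3, adjusted p = 0.414), with replicate 2 above replicate 1 in each of these groups.

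Gsr (chr8:33652523-33698163, plus strand) encodes glutathione reductase, which returns oxidized glutathione to its reduced form with NADPH. Its values were 5495 and 6111 with NC, 7642 and 7368 with IOX1 and 8319 and 7776 with MS023, while the other 8 compounds had 4555 to 6705. The groups did not overlap, although the change was small. Gsr rose 1.39-fold with MS023 (log2 change 0.47, SE 0.1, adjusted p = 0.0303), and its log2 change with IOX1 was 0.37 (SE 0.1, adjusted p = 0.159). DZNep had the lowest level, 5351 and 4555 (log2 change -0.23, adjusted p = 0.119).

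Txnrd1 (chr10:82833951-82897712, plus strand) encodes the cytosolic thioredoxin reductase. It had 8862 and 9106 with NC, 14424 and 13845 with IOX1 and 13845 and 13342 with MS023, with log2 changes of 0.65 (SE 0.15, adjusted p = 0.119) and 0.6 (SE 0.15, adjusted p = 0.0652). The identical value of 13845 in 2 libraries is a result of the normalization, which gives genes of the same rank the same value. Valproate had 9304 and 13634, so 1 of its libraries was at the level of MS023 and the other at that of NC. The remaining 7 compounds had 7368 to 10812.

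Srxn1 (chr2:152105516-152111376, plus strand) encodes sulfiredoxin, which repairs peroxiredoxins that hydrogen peroxide has overoxidized. It varied most of the 10 genes, with a 6.23-fold range between the highest and the lowest group mean. NC had 1216 and 1320. MS023 had 2924 and 3721 and IOX1 1862 and 2727, above the 379 to 1750 of all other libraries. Srxn1 rose 2.6-fold with MS023 (log2 change 1.38, SE 0.32, 95% interval 0.69 to 2.07, adjusted p = 0.042), by 1.27 and 1.49 within the replicate numbers, and with IOX1 its log2 change was 0.83 (SE 0.32, adjusted p = 0.308). The call with MS023 was lost whichever of the 4 libraries was left out (adjusted p from 0.132 to 0.24, log2 change 1.21 to 1.55).

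At the other end Valproate had 379 and 687 for Srxn1, Bromosporine 436 and 898 and DZNep 742 and 658, all of them below NC. Srxn1 fell by 1.31 on the log2 scale with Valproate (SE 0.32, 95% interval -2 to -0.62, adjusted p = 0.0186), with differences of -1.68 and -0.94 within the replicate numbers. Without NC replicate 1, NC replicate 2 or Valproate replicate 1 the adjusted p was 0.0787, 0.102 and 0.187, the last at a log2 change of -0.88. The log2 change was -1.02 with Bromosporine (SE 0.32, adjusted p = 0.0875) and -0.86 with DZNep (SE 0.32, adjusted p = 0.0681). Chaetocin (1401 and 1750), UNC0379 (1287 and 1551), Garcinol (1233 and 1449), CPTH2 (1021 and 1158) and OICR (1006 and 1177) lay around NC.

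Prdx1 (chr4:116685544-116700822, plus strand), a substrate of sulfiredoxin, followed another order. It had 35330 and 49460 with NC and was highest with Bromosporine at 67688 and 76118, where it rose 1.72-fold (log2 change 0.78, SE 0.17, 95% interval 0.41 to 1.15, adjusted p = 0.0195) without passing the fold threshold. IOX1 had 53954 and 59516 (log2 change 0.44, adjusted p = 0.317), and MS023, with 44980 and 39271, was at the level of NC (log2 change 0.01, interval -0.37 to 0.38). The value 53954 recurred in libraries of Garcinol, IOX1, OICR, UNC0379 and Valproate, since genes near the top of the table take the same few values after the normalization. With Bromosporine, Srxn1 and Prdx1 thus had log2 changes of opposite sign, of which the rise of Prdx1 passed the adjusted p.

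Me1 (chr9:86581371-86695953, minus strand) encodes cytosolic malic enzyme, a source of NADPH, and Abcc1 (chr16:14361558-14475737, plus strand) the transporter MRP1, which exports glutathione conjugates. Me1 had 3193 and 2652 with NC, 3463 and 4502 with MS023 and 2415 and 2407 with IOX1. Its log2 change was 0.44 with MS023 (SE 0.19, adjusted p = 0.294) and -0.27 with IOX1 (adjusted p = 0.566), and the lowest level was that of Bromosporine, 2183 and 1762 (log2 change -0.57, adjusted p = 0.108). Abcc1 had 3643 and 2532 with NC, 3844 and 2416 with IOX1 and 2488 and 2320 with MS023. Its lowest values were those of DZNep, 1664 and 1498, a log2 change of -0.94 (SE 0.35, adjusted p = 0.0641), followed by OICR with 2148 and 1672. No change of Me1 or Abcc1 against NC passed the test.

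**Figure D2:**
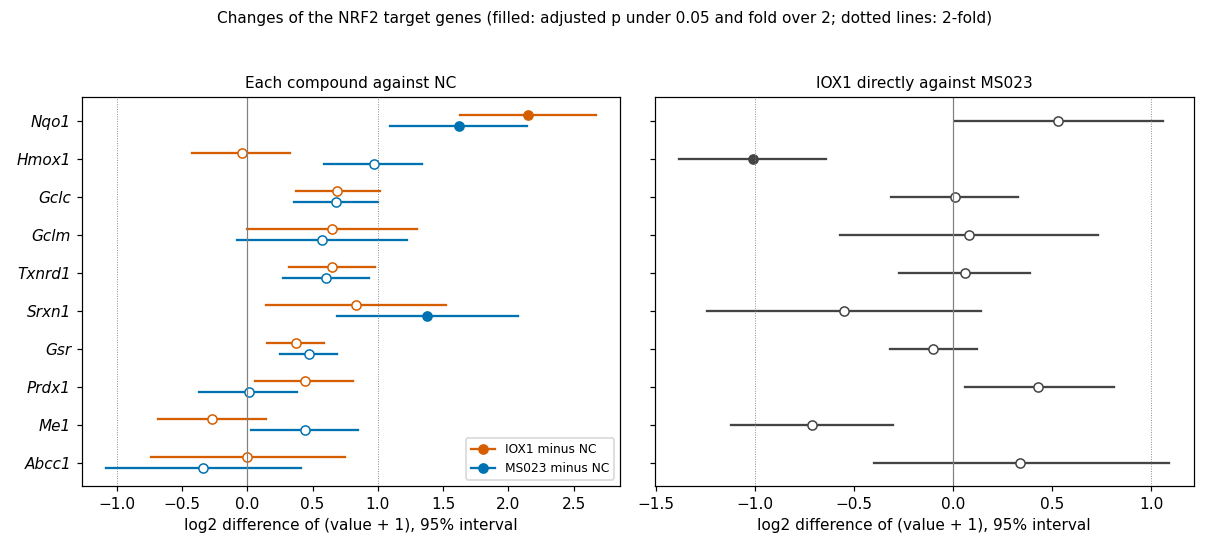
Log2 differences of (value + 1) with 95% intervals for the 10 genes, on the left for IOX1 (orange) and MS023 (blue) against NC and on the right for IOX1 directly against MS023. Filled points passed both thresholds (Nqo1 with both compounds and Srxn1 with MS023 on the left, Hmox1 on the right), and dotted lines mark a 2-fold difference.

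IOX1 and MS023 were then compared directly, without the NC libraries. Hmox1 was lower with IOX1 by a log2 difference of -1.01 (SE 0.17, 95% interval -1.38 to -0.64, adjusted p = 0.00607), and both IOX1 libraries were below both MS023 libraries (22% of all genes). The log2 difference was -0.79 within replicate number 1 and -1.23 within number 2. Hmox1 was the only member called in this comparison, in which 1.13% of all genes were called lower and 1% higher with IOX1. The fold (0.497) was close to the threshold, and 0 members were called without MS023 replicate 2 or after median-ratio rescaling of the libraries. Nqo1 was higher in both IOX1 libraries than in both MS023 libraries, and its log2 difference of 0.53 (interval 0.01 to 1.06) did not pass the adjustment (adjusted p = 0.263). Me1 had a log2 difference of -0.71 (interval -1.12 to -0.3, adjusted p = 0.051), Srxn1 of -0.55 (interval -1.24 to 0.14, adjusted p = 0.41) and Prdx1 of 0.43 (interval 0.06 to 0.81, adjusted p = 0.195).

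For the remaining genes the differences between IOX1 and MS023 were small against their intervals. The log2 difference was 0.01 for Gclc (interval -0.31 to 0.33), 0.06 for Txnrd1 (-0.27 to 0.39), -0.1 for Gsr (-0.32 to 0.12), 0.08 for Gclm (-0.57 to 0.73) and 0.34 for Abcc1 (-0.4 to 1.09). Among all 10 genes, the 95% intervals of Gclc, Txnrd1, Gsr, Gclm and Prdx1 lay within a 2-fold difference on either side. Those of Abcc1, Srxn1, Nqo1, Me1 and Hmox1 extended beyond it. In the levels themselves, 6 of the 10 genes in both IOX1 libraries exceeded all 18 libraries of NC and the other 8 compounds (Nqo1, Gclc, Gclm, Txnrd1, Srxn1 and Gsr), and 5 of 10 did so in both MS023 libraries (Nqo1, Hmox1, Gclc, Srxn1 and Gsr). Of all genes tested, 1.16% did so with IOX1 and 2.96% with MS023. This count is a description, because the pair of compounds was singled out after the values had been seen.

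IOX1 was also compared with each of the other compounds. It was chosen because an earlier result of these data had shown a high Nqo1 with it. For Nqo1 these tests therefore repeat the value that led to the choice and are no separate support. All of them use the same IOX1 libraries, so they are not independent of each other. Nqo1 was higher with IOX1 than with all 8 compounds besides MS023, with adjusted p from 5.25e-05 (Valproate) to 0.0418 (Chaetocin). The share of all genes called higher with IOX1 was 2.05% against Bromosporine, 0.0289% against Chaetocin, 0.0289% against CPTH2, 5.97% against DZNep, 0.0232% against Garcinol, 0.0868% against OICR, 0.0405% against UNC0379 and 3.07% against Valproate. Srxn1 was also higher than with Bromosporine, DZNep and Valproate (log2 difference 1.85, 1.69 and 2.14), and Gclm was higher than with Valproate (log2 difference 1.14, SE 0.3, adjusted p = 0.0218). Leaving out single libraries brought the number of members called to 0 in at least 1 case against Chaetocin, CPTH2, Garcinol, OICR and UNC0379, and left 1 to 2 against Bromosporine, 2 to 3 against DZNep and 2 to 3 against Valproate.

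Over all 45 pairs of compounds, each member could differ in 17 pairs that hold IOX1 or MS023 and in 28 that hold neither. Nqo1 was called in 13 pairs, every one with IOX1 or MS023, and in these pairs 0.0232% to 5.97% of all genes were called in the same direction. Hmox1 was called in 8 pairs, every one with MS023 (0.342% to 5.39% of all genes). In the comparison of MS023 with Garcinol, the 9th partner, Hmox1 was not called. Srxn1 was called in 16 pairs, 8 with IOX1 or MS023 and 8 without them (0.342% to 6.21% of all genes). In these, Valproate was lower than 7 other compounds, DZNep lower than 4 and Bromosporine lower than 3. The widest of these differences was 6.45-fold, between MS023 and Valproate (log2 difference 2.69, SE 0.32, adjusted p = 0.000109, with 3.8% of all genes called higher with MS023). Gclm was called in 2 pairs, IOX1 and MS023 each above Valproate (3.07% and 3.8% of all genes), and Me1 in 1, MS023 above Bromosporine (log2 difference of Bromosporine from MS023 -1.01, adjusted p = 0.00371, 4.61% of all genes). Abcc1 was called in 4 pairs, in which DZNep was lower than Bromosporine, Chaetocin, CPTH2 and Valproate (adjusted p = 0.0421, 0.025, 0.0389 and 0.0244), as were 5.92% to 6.5% of all genes. Gclc, Txnrd1, Gsr and Prdx1 were called in 0 pairs by limma.

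**Figure D3:**
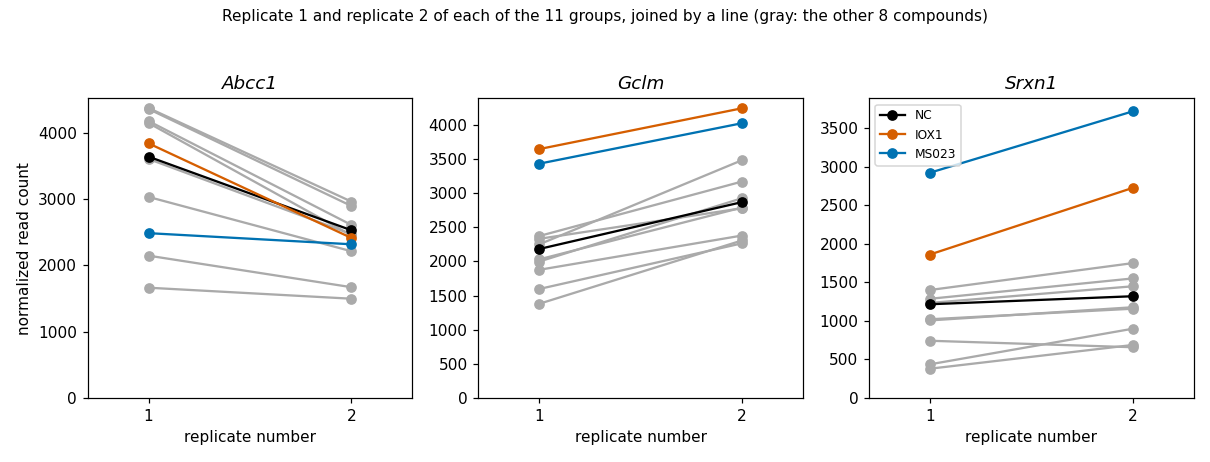
Normalized read counts (vertical axis, from 0) of Abcc1, Gclm and Srxn1 in replicate 1 and replicate 2 (horizontal axis), with a line joining the 2 libraries of each of the 11 groups (black NC, orange IOX1, blue MS023, gray the other 8 compounds). Replicate 2 is lower in 11 of 11 groups for Abcc1, higher in 11 of 11 for Gclm and higher in 10 of 11 for Srxn1.

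Part of the spread within groups followed the replicate number of the labels. Replicate 2 was below replicate 1 in 11 of 11 groups for Abcc1 (median log2 difference -0.54), above it in 11 of 11 groups for Gclm (0.42) and above it in 10 of 11 for Srxn1 (0.27). The labels do not say what the numbers stand for. These 3 genes also had the largest standard errors of the set, 0.35, 0.3 and 0.32, against 0.1 for Gsr and 0.15 for Gclc and Txnrd1. Within each number the differences of Nqo1 and Srxn1 from NC with MS023, and of Nqo1 with IOX1, kept their direction. This had to be so, because both libraries of the compound lay above both NC libraries in each case.

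Across the 11 group means, the members most alike in pattern were Nqo1 and Gsr (Pearson r = 0.868), Gclc and Gsr (0.853), Nqo1 and Gclm (0.852), Srxn1 and Gsr (0.848) and Nqo1 and Srxn1 (0.846), and the least alike were Prdx1 and Me1 (-0.646). These are descriptions over 11 points, each a mean of the same 2 replicate series after a common normalization. Among 12870 genes with a mean of at least 100, those whose group means followed Nqo1 most closely were Gng10 (r = 0.918), Golga7 (0.914), Trappc6b (0.898), Rabep1 (0.89) and Pdzd7 (0.886). For Srxn1 they were Dnlz (0.955), Psme2 (0.938), Anxa4 (0.937), Cat (0.937) and Atp5s (0.933). Cat, which encodes catalase, is itself on the list of further NRF2 targets described next.

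A wider list of 45 NRF2 targets outside the 10 genes, 43 of them tested, was examined in the same fit. The list was chosen with earlier results of these data known, so it is not an independent check. With MS023 3 of 43 were called higher and 0 lower, and with IOX1 2 of 43 were called higher and 0 lower (against 0.388% and 0.0347% of all genes called higher). The medians were 0.29 and 0.15 on the log2 scale, beside -0.01 and -0.02 over all genes. The genes raised by both were Cbr3, a carbonyl reductase, and Ptgr1, a prostaglandin reductase that also reduces reactive aldehydes. Cbr3 rose from 659 and 695 with NC to 2742 and 2101 with IOX1 (log2 change 1.82, SE 0.18, adjusted p = 0.00123) and to 1918 and 1478 with MS023 (1.31, SE 0.18, adjusted p = 0.00514). Ptgr1 rose from 855 and 918 to 2991 and 2608 with IOX1 (1.66, SE 0.15, adjusted p = 0.000891) and to 3870 and 3644 with MS023 (2.08, SE 0.15, adjusted p = 4.6e-05). With Nqo1 they made up 3 of the 6 genes that IOX1 raised, the others being Gm10131, Bin1 and Pgrmc1 (log2 change 1.49, 1.34 and 1.07).

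MS023 also raised Osgin1, an oxidative stress-induced growth inhibitor, from 19 and 12 to 160 and 186 (log2 change 3.43, SE 0.53, adjusted p = 0.00686). With IOX1, Osgin1 had 47 and 37, both above NC, and the direct difference between IOX1 and MS023 passed the test (log2 -2.02, SE 0.53, adjusted p = 0.0459). Neither Cbr3 (log2 0.51, interval 0.12 to 0.91, adjusted p = 0.141) nor Ptgr1 (-0.43, interval -0.76 to -0.1, adjusted p = 0.14) passed it.

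DZNep and Valproate raised further targets, while the log2 change of Nqo1 was 0.08 and -0.24 with them. Markers of fibroblasts moved in the same comparisons. Of 6 tested, 2 were called higher with DZNep (median log2 change 1.64, with 5.27% of all genes called higher). With Valproate 2 of 6 were called higher (median 1.7, with 2.73% of all genes). The sum of the 7 listed in the table was 528 and 1368 with NC, 1612 and 1874 with DZNep and 1554 and 1422 with Valproate, with Dcn at 0. With DZNep 1 of 2 trophoblast markers was also called higher (sums 131 and 127 with NC, 365 and 210 with DZNep). In the same comparison 1 of 3 endoderm markers was called lower (6.14% of all genes), and 2 of 10 embryonic stem cell markers were called higher. With Valproate 1 of 10 embryonic stem cell markers was called higher, and 0 of 3 endoderm and 0 of 2 trophoblast markers were called. In the Bromosporine comparison 1 of 6 fibroblast markers was called lower (2.77% of all genes). Called higher were 1 of 2 trophoblast and 1 of 10 embryonic stem cell markers (0.573%). With IOX1 and MS023 0 markers were called (0.116% and 0.973% of all genes). Fibroblast sums were 347 and 654 with IOX1 and 1067 and 105 with MS023. Embryonic stem cell sums were 248087 and 240917 with NC, 276174 and 257693 with IOX1 and 229998 and 209156 with MS023. The part of these markers in the changes of the targets was not tested. With DZNep 7 of 43 were called higher and 2 lower, beside 5.27% and 6.14% of all genes. Those with the largest changes were Gsto1, a glutathione transferase, from 228 and 330 to 4787 and 5580 (log2 change 4.23, SE 0.39, adjusted p = 1.33e-05), Cbr3 with 3095 and 3189 (2.21, SE 0.18, adjusted p = 6.76e-06) and the epoxide hydrolase Ephx1 with 2430 and 2498 against 717 and 550 (1.97, SE 0.38, adjusted p = 0.00219). Osgin1 (47 and 53), Ptgr1 (2969 and 2467) and Gss (8556 and 11541 against 4062 and 3966), which completes the synthesis of glutathione, rose by 1.66, 1.61 and 1.31 on the log2 scale. With Valproate 4 of 43 were called higher (2.73% of all genes) and 0 lower (2.55%), and without NC replicate 1 the number called was 1. The 4 genes were Gsto1 (log2 change 1.93), Ephx1 (1.28), the transporter Abcc2 (1.07) and Ptgr1 (1.04). Bromosporine lowered 2 of 43 (2.77% of all genes), Cbr3 to 290 and 313 (log2 change -1.16, adjusted p = 0.00279) and Osgin1, listed at 2 and 0, and without NC replicate 1 the number called was 1. Of the 43 genes, 0 were called by limma with Chaetocin, CPTH2, Garcinol, OICR and UNC0379.

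**Figure D4:**
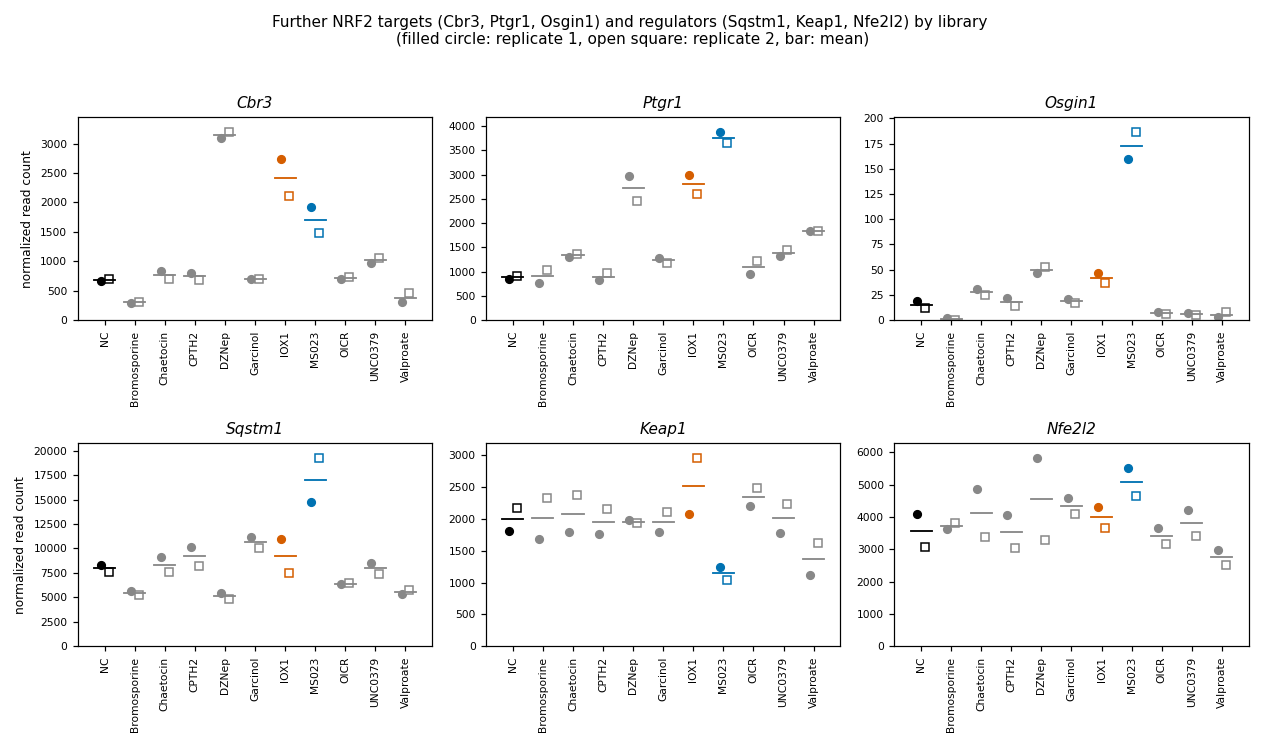
Normalized read counts (vertical axis, from 0) of the NRF2 targets Cbr3, Ptgr1 and Osgin1 and of the regulators Sqstm1, Keap1 and Nfe2l2 in the 2 libraries of each group (filled circle replicate 1, open square replicate 2, bar mean). Cbr3 and Ptgr1 are high with DZNep as well as with IOX1 and MS023, whereas Osgin1 (160 and 186) and Sqstm1 (14713 and 19230) are highest with MS023. Keap1 is below NC with MS023 (1241 and 1043) and with Valproate (1120 and 1619).

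Among 11 genes that act on NRF2, 1 was called, Sqstm1 with MS023 (0.388% of all genes called higher). With the adjusted p alone 5 of the 11 passed with DZNep, 1 higher and 4 lower (10.7% and 12.8% of all genes), at a median log2 change of -0.37 beside -0.04 over all genes. Sqstm1 encodes p62, which binds KEAP1 and directs it to autophagy, and is also an NRF2 target. Its values rose from 8309 and 7633 to 14713 and 19230 (log2 change 1.08, SE 0.18, adjusted p = 0.00897), and 8 of the 11 genes lay above NC in both MS023 libraries (21.8% of all genes). Keap1 and Nfe2l2, picked out here after their values had been seen because they encode KEAP1 and NRF2, did not pass the test against NC. Keap1 had 1817 and 2165 with NC, 1241 and 1043 with MS023 (log2 change -0.8, SE 0.23, adjusted p = 0.107) and 2084 and 2952 with IOX1 (0.32, adjusted p = 0.567). Both libraries of Valproate, with which Srxn1 was called lower, also lay below NC for Keap1 (1120 and 1619). In the direct comparison Keap1 was higher with IOX1 than with MS023 (log2 difference 1.12, SE 0.23, interval 0.62 to 1.62, adjusted p = 0.0143). Nfe2l2 had 4089 and 3070 with NC, 5525 and 4657 with MS023 (log2 change 0.52, adjusted p = 0.369) and 4311 and 3675 with IOX1 (0.17, adjusted p = 0.807). The RNA level of Nfe2l2 does not report the amount of NRF2 protein, which is set largely by degradation.

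Nqo1 is also a target of the aryl hydrocarbon receptor, so 7 genes of that receptor's battery, 6 of them tested, were read beside it. With IOX1 and with MS023 0 of 6 were called by limma (0.0347% and 0.388% of all genes called higher). Apart from Tiparp (2373 to 3356), these genes had low values. Over all libraries Cyp1a1 ran from 16 to 79, Cyp1a2 from 0 to 185 and Cyp1b1 from 0 to 97. Ahrr ran from 32 to 80 and Aldh3a1, also on the list of further NRF2 targets, from 23 to 230. At such values the count of 0 says little about the receptor. The median log2 change of the 6 was -0.16 with IOX1, where 2 estimates were up and 4 down, and 0.41 with MS023, where 5 were up and 1 down, beside -0.02 and -0.01 over all genes. The estimate that was down with MS023 was that of Tiparp (-0.06, interval -0.27 to 0.16). Cyp1a2 was called with DZNep, from 2 and 4 to 185 and 181 (log2 change 5.57, SE 0.93, adjusted p = 0.000868, with 5.27% of all genes called higher), and no other gene of the 6 was called with any compound.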

How the data were processed

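Poly(A) RNA of E14 mouse embryonic stem cells was sequenced in 22 libraries, grouped and numbered by their titles and treatments. Oligo-dT beads were used per the labels, and the submitters' processing notes name bcl2fastq, Bowtie2 2.2.5, RSEM and mm10. The deposited values are scores, that is normalized read counts that the authors made with EDASeq at its full setting and rounded to whole numbers. The methods of the study do not describe the compounds and are taken to cover these libraries. Raw counts were not used here, so DESeq2, the authors' test, was not run. A table of the authors' group means was not used. All columns matched a title (0 unmatched).

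Values were analysed as log2(value + 1) with limma 3.58.1 in R 4.3.3. Genes with at least 10 in at least 2 libraries were kept (17275 of 18487). One linear model of 11 group means was fitted, with trended eBayes variances and 11 residual degrees of freedom. P-values are two-sided and adjusted by the Benjamini-Hochberg method over all tested genes within each comparison. Calls required an adjusted p under 0.05 and a fold over 2. The fit was tested on simulated data with independent noise in each library, which left out any effect of the replicate number. Members, lists, tests and alternatives were chosen with earlier results of these data known. All members were named. From other lists, called genes were named, at most the 6 with the largest change per compound. For likeness, the rule named the 5 genes with the highest correlation of group means, for each member called against NC. Positions came from GENCODE M21 (mm10), and promoters from RefSeq (GRCm38.p6). Sequences and plots were handled in Python 3.11.15 with numpy 2.4.6 and matplotlib 3.10.9. The alternatives comprised no filter, a pseudocount of 10, a fit of only the groups compared, the replicate number as a block, median-ratio rescaling (factors 0.971 to 1.04), adjustment over all comparisons, no fold threshold, the mean of the other 9 compounds in place of NC, and leaving out each library.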

Additional observations from a re-analysis of the deposited data

How the results depend on the processing

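Of the 8 changes of a member against NC with an adjusted p under 0.05, 0 reversed under any setting. In all 8, both libraries of the compound lay on the same side of both NC libraries. Leaving out a library or adding the replicate block therefore could not reverse them, and this count is no separate support. With only the groups compared in the fit, the spread rests on 4 libraries. In that fit 0 members were called with IOX1, MS023 and Valproate against NC (Nqo1 with IOX1: adjusted p = 0.123). With IOX1 against every other compound 0 were called as well. Over all genes it called 42 in place of 20 with IOX1, 67 in place of 168 with MS023 and 75 in place of 912 with Valproate. Why the members lost their calls was not tested. Without the filter 1 member was called with MS023 and 0 with IOX1 against Chaetocin. Without a fold threshold 1 was called with Bromosporine, 5 with MS023 and 5 with IOX1 against DZNep. With the mean of the other 9 compounds as reference 1 was called with Bromosporine. With median-ratio rescaling 0 were called with IOX1 against MS023. The replicate block gave 1 with Bromosporine (against 0), namely Srxn1 (log2 change -1.02, adjusted p = 0.00833 in place of 0.0875), 2 with IOX1 against CPTH2 and 2 against OICR (1 each without it), where Srxn1 was added, and added Gclm with IOX1 against Bromosporine (adjusted p = 0.000176 in place of 0.0665). It gave 23 pairs for Srxn1 in place of 16. Over all genes it called 1189 in place of 577 with Bromosporine, 217 in place of 20 with IOX1, 484 in place of 168 with MS023, 274 in place of 67 with OICR and 1487 in place of 912 with Valproate. Same-numbered deviations correlated in the 55 pairs of groups at 0.0535 to 0.298 (51 above 0.1), but the labels do not say that the numbers pair samples and each comparison has only 2 of them.

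Leaving out 1 library at a time, the number of members called against NC was 1 to 1 with IOX1, 0 to 1 with MS023 (main value 2), 0 to 1 with Valproate, 0 to 1 with Bromosporine and 0 to 0 with the rest. For IOX1 it was 1 to 2 against Bromosporine, 0 to 0 against Chaetocin and OICR, 0 to 1 against CPTH2, Garcinol, MS023 and UNC0379, 2 to 3 against DZNep and 2 to 3 against Valproate. The left-over library of a group was assumed to vary like the other groups. Adjusted over all 45 pairs together, Abcc1 was called in 0 pairs and Gclm in 1. Among the other NRF2 targets, the fit of only the groups compared called 2 with DZNep (9 in the common fit), 1 with MS023 (3), 0 with IOX1 (2), 0 with Valproate (4) and 0 with Bromosporine (2). The adjusted p of Nqo1 over all settings ran from 0.000354 to 0.123 with IOX1 and from 0.00158 to 0.13 with MS023. That of Srxn1 ran from 0.000991 to 0.24 with MS023 and from 0.00115 to 0.222 with Valproate. Leaving out 1 library, the other NRF2 targets called numbered 6 to 8 with DZNep, 1 to 3 with Valproate, 2 to 3 with MS023, 2 to 2 with IOX1 and 1 to 2 with Bromosporine. The depth of the libraries is unknown, so no counting error was given.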
